A study of Homo sapiens with 4 samples.

Results

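The replication-dependent histone genes were taken as the protein-coding genes whose GENCODE 29 name starts with HIST1H, HIST2H, HIST3H or HIST4H, and SLBP, which encodes the stem-loop binding protein, was added to them. These were 72 of the 58219 gene IDs in the deposited table, 71 histone genes and SLBP. The study compared RNA sequencing of a temozolomide-resistant line with that of its parental line, GBM8401, a human malignant glioma line. The resistant line was raised from GBM8401 in medium with 200 µM temozolomide (TMZ), the alkylating drug used against glioblastoma, over 140 days. It gave 2 libraries, labelled TMZ-resistant, and parental GBM8401 gave 2 libraries. The labels call the replicates biological but tie them to no day or culture, and the resistant libraries come from 1 derived line, so the p-values measure the spread between these libraries and not between independently derived lines.

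Replication-dependent histone genes supply the H1, H2A, H2B, H3 and H4 proteins that package newly copied DNA, and dividing cells make most of their mRNA in S phase. Their genes have no introns in the main transcript, and the usual mRNA ends in a conserved stem-loop in place of a poly(A) tail. SLBP binds that stem-loop and takes part in 3′ end processing, export, translation and decay of the mRNA. Some of these genes can also be read past the stem-loop to a downstream poly(A) site, which has been described in differentiating and arrested cells. The genes lie in a large group on chromosome 6 (HIST1), smaller groups on chromosome 1 (HIST2 and HIST3) and a single gene on chromosome 12 (HIST4).

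Total RNA entered a strand-specific library kit. Whether poly(A) RNA was selected or ribosomal RNA removed is not given in the sources used here, and a poly(A) selection would lose mRNAs that end at the stem-loop. The deposited values are scaled fragment numbers per gene, with library totals of 23163310 and 24225039 in the resistant libraries and of 24791254 and 25832511 in the parental ones. Across tested genes, log2 values correlated at r = 0.991 between the resistant libraries and 0.989 between the parental libraries, against 0.965 to 0.971 between groups (a description across genes, which are not replicates). Of the neural and glioma markers, OLIG2, a glial transcription factor, had values of 199.6 and 183 in resistant libraries and 198 and 237 in parental libraries, and the growth factor receptor gene EGFR had 10958 and 11844 in resistant libraries and 10606 and 12445 in parental libraries. NES, which encodes the neural progenitor filament nestin, had 3430.1 and 3797 in resistant libraries and 7859 and 7241 in parental libraries (log2 fold change −1.06, limma adjusted p = 1.04e-04). VIM, which encodes vimentin, had 47407 and 54488 in resistant libraries and 74279.6 and 81177 in parental libraries (−0.61, limma adjusted p = 0.00105). These 2 of the 5 tested markers of this list fell and 0 rose. GFAP and S100B, astrocyte markers, did not exceed 4.25 in any library. SOX2, like them too low to be tested, had 10.5 and 9.34 in the resistant libraries and 4.07 and 2.87 in the parental libraries. Both resistant values lay above both parental values for SOX2 and S100B, and below them for GFAP. Of 7 markers of other cell types, RBFOX3 was higher and CDH5 lower in the resistant libraries and the other 5 were not called.

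The stem-loop is shown because it is the part of the histone mRNA that SLBP binds. The GENCODE 29 transcripts were searched within 100 bases after the stop codon for a stem of 6 bases that starts with GG, a loop of 4 bases that starts with TT, and the reverse complement of the stem. It was found in 30 of the 71 histone genes, at 23 to 68 bases after the stop codon. Of the other protein-coding genes, 3 of 19501 (0.0154%) held it. In 35 of the 71 histone genes the annotated transcript ends at the stop codon, so nothing could be searched there. Capitals mark the paired stem and lower case the loop in these 4 DNA sequences, 1 for each version found, 5′ to 3′ on the gene's own strand (GRCh38).
HIST2H2BE, chr1:149886188-149886203, minus strand: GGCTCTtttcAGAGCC
HIST1H2BC, chr6:26123472-26123487, minus strand: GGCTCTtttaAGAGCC
HIST1H4H, chr6:26285131-26285146, minus strand: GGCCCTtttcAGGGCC
HIST1H4I, chr6:27139654-27139669, plus strand: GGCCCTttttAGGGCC
The versions differ in 1 stem pair and in the last loop base. The first was found in 17 genes, HIST1H2AC and HIST3H2A among them, the second in 5, HIST1H2BD included, the third in 5 and the last in 3.

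SLBP mRNA was lower in the resistant libraries, while no tested histone gene was called lower. SLBP (ENSG00000163950, chr4:1692800-1712555, minus strand) had values of 505 and 507 in the resistant libraries and of 1174 and 1227 in the parental libraries. Both resistant values lay below both parental values, and the 2 libraries of each group lay close together. The log2 fold change was −1.24 ± 0.09 (SE), 2.37-fold lower (limma adjusted p = 9.23e-05).

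The summed value of the 71 histone genes was higher in the resistant libraries. It was 4262 and 4359 in the resistant libraries and 2079 and 1914 in the parental libraries, 4310 ± 68.4 and 1997 ± 117 (SD, n = 2 each), a ratio of 2.16. The groups did not overlap, but 2 libraries against 2 cannot give an exact permutation p below 0.333 (two-sided). The summed histone value was 8.43 and 8.60 times the SLBP value in the resistant libraries and 1.77 and 1.56 times in the parental libraries. In a bulk sample, a change in how many cells are in a given state and a change in the RNA per cell cannot be told apart.

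Of the 71 histone genes, 27 passed the filter on low values (a value of at least 10 in at least 2 libraries and a sum of at least 15). Of these 27, 13 rose in the resistant libraries, 0 fell and 14 did not pass the test (limma, adjusted p under 0.05). Of all 16132 genes tested, 16.2% were called higher and 20.9% lower, 37.1% in either direction. Without the second resistant library 8 histone genes were called higher, the fewest with any 1 library left out. The median log2 fold change of the 27 histone genes was 1.0, against −0.02 for all tested genes. The fold change was positive in 26 of the 27, counting HIST1H2BK, which lay at 0.00 ± 0.19 (SE) on the log2 scale. In 22 of the 27 both resistant values exceeded both parental values, which was so for 32.2% of all tested genes. In 0 of the 27 did both resistant values lie below both parental values, which was so for 36.4% of all tested genes. A gene that is high in 1 group alone can pass the filter through that group, so these counts describe the 27 and not all 71.

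**Figure D1:**
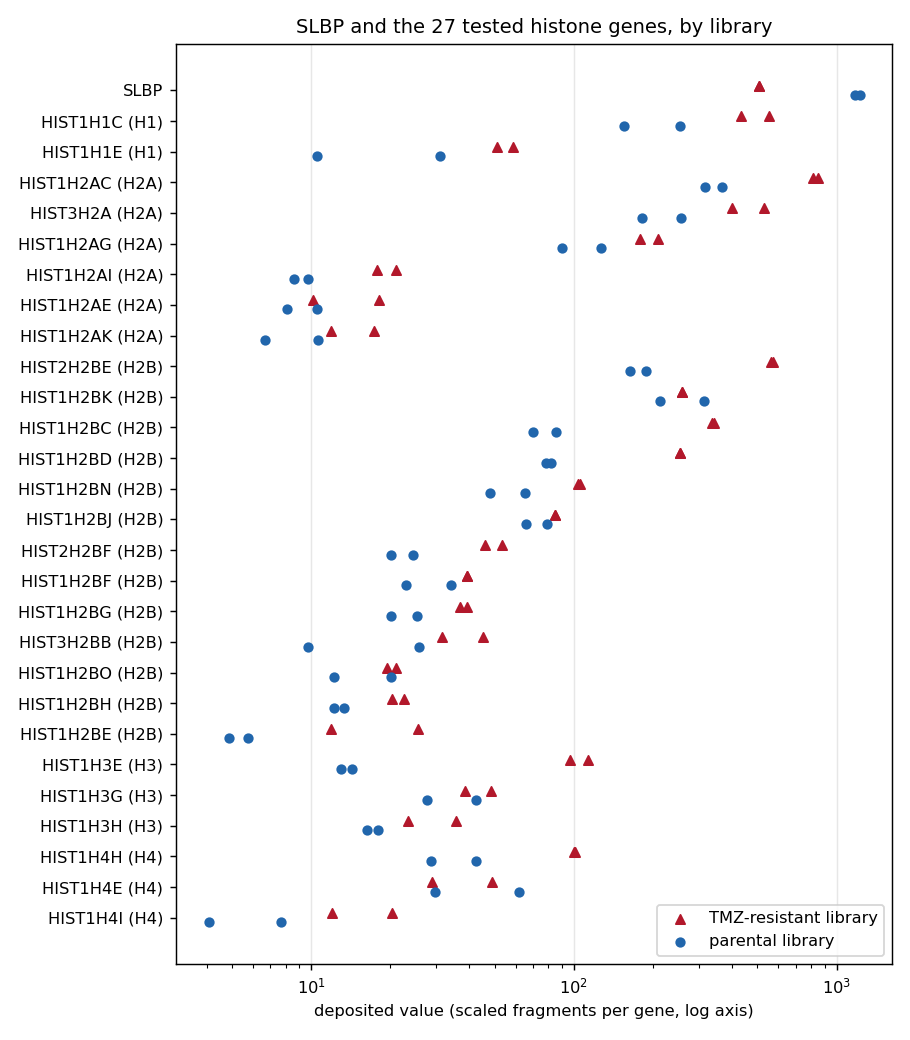
Values of SLBP and the tested histone genes in each library (resistant libraries before parental ones). SLBP sits near 505 in the resistant libraries and near 1200 in the parental libraries, while HIST1H2AC, HIST2H2BE and HIST1H2BC are higher in both resistant libraries.

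Linker histone H1, which binds DNA between nucleosomes, had 6 genes, of which 2 were tested and both rose. HIST1H1C had values of 552 and 431 in the resistant libraries and of 254 and 155 in the parental libraries. The groups did not overlap, although the libraries within each group differed widely. The log2 fold change was 1.29 ± 0.24 (SE; limma adjusted p = 0.00615). HIST1H1E had 58.7 and 51.0 in the resistant libraries and 30.9 and 10.5 in the parental libraries. The second parental library was far below the first, and the log2 fold change was 1.54 ± 0.47 (limma adjusted p = 0.0352). This call was lost without the first resistant library (1.44, adjusted p = 0.133), the second resistant library (1.64, adjusted p = 0.0872) or the second parental library (0.80, adjusted p = 0.0752), in limma fits of the other libraries. Per kb of annotated exon, HIST1H1C had a mean level of 766 in the resistant and 318 in the parental libraries, and HIST1H1E of 72.7 in the resistant and 27.5 in the parental libraries.

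H2A forms a dimer with H2B in the nucleosome core. Of 17 H2A genes, 6 were tested, 3 rose and none fell. HIST1H2AC had values of 810.3 and 853 in the resistant libraries and of 316 and 367 in the parental libraries. The 2 libraries of each group lay close together and the groups were far apart, with a log2 fold change of 1.28 ± 0.12 (limma adjusted p = 1.85e-04). HIST3H2A had 401 and 529.9 in the resistant libraries and 182 and 255 in the parental libraries. Every resistant value exceeded every parental one, with a log2 fold change of 1.09 ± 0.20 (limma adjusted p = 0.00437). HIST1H2AG had 179 and 209 in the resistant libraries and 90.3 and 127 in the parental libraries. Its log2 fold change was 0.85 ± 0.21 (limma adjusted p = 0.014), and without the second resistant library it was 0.74, no longer called (adjusted p = 0.0881). HIST1H2AE, HIST1H2AI and HIST1H2AK had log2 fold changes of 0.51, 1.0 and 0.70 and were not called. Of the 50-base stretches of HIST1H2AI, 62.3% also occur in another gene, so its value is uncertain.

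H2B gave the most tested genes, 13 of 18, of which 6 rose and none fell. HIST2H2BE had values of 563 and 574 in the resistant libraries and of 189 and 163 in the parental libraries. Both groups were tight and far apart, with a log2 fold change of 1.69 ± 0.13 (limma adjusted p = 1.04e-04). HIST1H2BC had 340.4 and 335 in the resistant libraries and 85.4 and 69.8 in the parental libraries, so that the 2 resistant libraries were nearly equal. Its log2 fold change was 2.12 ± 0.17, 4.33-fold higher (limma adjusted p = 1.15e-04). HIST1H2BD had 253 in each resistant library and 78.1 and 82.2 in the parental libraries. The values within each group were nearly equal, and the log2 fold change was 1.65 ± 0.16 (limma adjusted p = 2.53e-04). HIST1H2BD overlaps AL353759.1 on the other strand and LARP1P1 on the same strand. Neither exceeded 2.44 in any library, but fragments in the overlaps cannot be assigned with certainty.

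The other 3 H2B genes that rose were at lower levels. HIST1H2BN had 104 and 106 in the resistant libraries and 48.0 and 65.0 in the parental libraries, a log2 fold change of 0.90 ± 0.23 (limma adjusted p = 0.0162). HIST2H2BF had 53.5 and 45.9 in the resistant libraries and 24.4 and 20.1 in the parental libraries, a log2 fold change of 1.13 ± 0.29 (limma adjusted p = 0.016). HIST1H2BE had 25.6 and 11.9 in the resistant libraries and 4.88 and 5.74 in the parental libraries, a log2 fold change of 1.56 ± 0.49 (limma adjusted p = 0.0374). None of the 3 overlapped between groups, but the first resistant library of HIST1H2BE was far above the second. The HIST1H2BN call was lost without the first parental (0.68), the first resistant (0.91) or the second resistant library (0.88), with limma adjusted p of 0.0532, 0.0757 and 0.0841. The HIST2H2BF call was lost without the first (1.02) or the second resistant library (1.23), with limma adjusted p of 0.121 and 0.0625. The HIST1H2BE call was lost without the first parental library (1.46, limma adjusted p = 0.0622). HIST1H2BE did not pass the filter without either resistant library. Of the 50-base stretches of HIST2H2BF, 25.7% also occur in another gene. HIST2H2BF overlaps AC243772.2 on the same strand and FCGR1A on the other, so its fragments cannot be assigned with certainty. AC243772.2 had 9.79 and 11.9 in the resistant libraries and 1.63 and 0.956 in the parental libraries. FCGR1A had 13.6 and 6.79 in the resistant libraries and 11.4 and 8.60 in the parental libraries. The annotated HIST1H2BN model has 5477 bases of exon. It overlaps HIST1H2AL on the same strand and HIST1H2AK on the other, and fragments there cannot be assigned with certainty.

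HIST1H2BK stood apart from the H2B genes that rose. It had values of 257 and 259 in the resistant libraries and of 312 and 213 in the parental libraries. The parental libraries lay on either side of the resistant ones, and the log2 fold change was 0.00 ± 0.19 (limma adjusted p = 0.998), with values of −0.27 and 0.27 without the second and the first parental library. Per kb of exon it was the highest H2B gene, at 677 in the resistant and 689 in the parental libraries. However, 74.1% of its 50-base stretches also occur in another gene, with H2BFS sharing the most. The other H2B genes not called were HIST1H2BJ, HIST1H2BF, HIST1H2BG, HIST1H2BH, HIST1H2BO and HIST3H2BB, with log2 fold changes of 0.23 to 1.19. HIST1H2BJ had 85.1 and 84.9 in the resistant libraries and 78.9 and 66.0 in the parental libraries, a log2 fold change of 0.23 ± 0.21 (limma adjusted p = 0.43). HIST3H2BB was called without the second parental library (1.85, limma adjusted p = 0.00736).

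H3 and H4 form the central tetramer of the nucleosome, and most of their genes lay below the filter. Of 15 H3 genes, 3 were tested and 1 rose. HIST1H3E had the largest fold change of any tested histone gene, with values of 96.4 and 113 in the resistant libraries and of 13.0 and 14.3 in the parental libraries. The resistant values were far above the parental ones, with a log2 fold change of 2.84 ± 0.27, 7.18-fold higher (limma adjusted p = 2.10e-04). HIST1H3H had 23.3 and 35.7 in the resistant libraries and 17.9 and 16.3 in the parental libraries. Its groups did not overlap, but the log2 fold change of 0.73 ± 0.35 did not pass the test (limma adjusted p = 0.138). HIST1H3G, the third, overlapped between groups, with a log2 fold change of 0.32 ± 0.31.

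Of 15 H4 genes, 3 were tested and 1 rose. HIST1H4H had values of 101 and 100.2 in the resistant libraries and of 42.3 and 28.7 in the parental libraries. The resistant libraries were nearly equal and above both parental ones, with a log2 fold change of 1.5 ± 0.26 (limma adjusted p = 0.0029). HIST1H4E had 48.9 and 28.9 in the resistant libraries and 61.8 and 29.6 in the parental libraries. It was the single tested histone gene with a negative fold change, −0.18 ± 0.41 on the log2 scale, and the groups overlapped (limma adjusted p = 0.767). Its log2 fold change was 0.33 without the first parental library and 0.19 without the second resistant library. HIST1H4I had 12 and 20.4 in the resistant libraries and 4.07 and 7.65 in the parental libraries. Its log2 fold change of 1.34 ± 0.49 did not pass the test (limma adjusted p = 0.0649), but did without the second parental library (1.72, adjusted p = 0.0353).

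**Figure D2:**
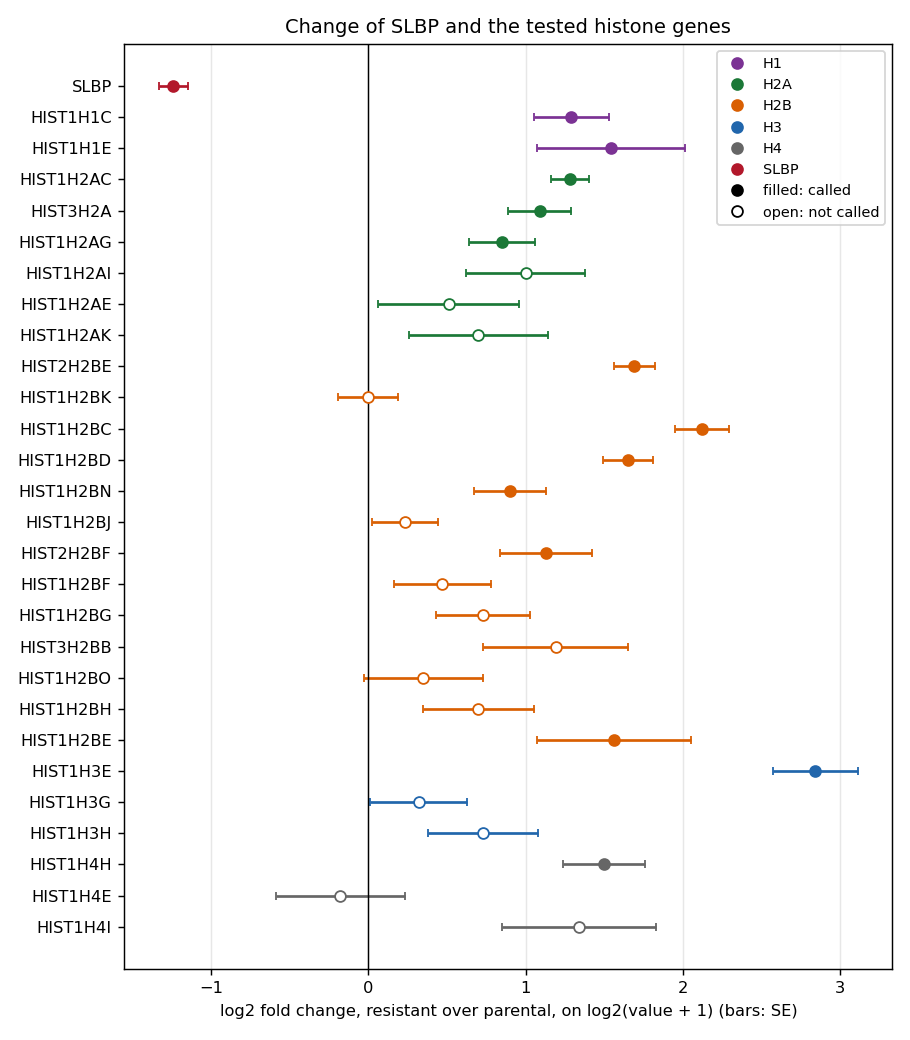
Log2 fold changes, resistant over parental, of SLBP and the 27 tested histone genes by histone type, with standard errors. SLBP lies at −1.24 and HIST1H3E at 2.84, and 26 of the 27 histone genes lie at or above 0.

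The summed value of each histone type was higher in the resistant libraries. H1 summed to 615 and 492 in the resistant libraries and to 287 and 165 in the parental libraries, a ratio of 2.45. The ratio was 2.14 for H2A, 2.15 for H2B, 2.27 for H3 and 1.68 for H4. The H4 sums were 178 and 165 in the resistant libraries and 129 and 75.5 in the parental libraries, and H4 was the type whose groups lay nearest to each other. With 1 library left out, the log2 ratio of sums ranged from 0.41 to 1.18 for H4 and from 0.95 to 1.74 for H1. No type overlapped between groups, and no difference between types was tested. H2B and H2A held most of the signal, with sums of 1841 and 1839.5 for H2B and of 1462 and 1648 for H2A in the resistant libraries, against 920.1 and 794 for H2B and 649.8 and 806 for H2A in the parental libraries. H3 and H4 each stayed at or under 215 in every library.

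By gene group, HIST1 on chromosome 6 held 55 histone genes, of which 23 were tested and 10 rose. Its sums were 3194 and 3138 in the resistant libraries and 1634 and 1432 in the parental libraries, a ratio of 2.07. HIST2 on chromosome 1 held 12 genes, of which 2 were tested and both rose, HIST2H2BE and HIST2H2BF. The HIST2 sums were 632 and 644 in the resistant libraries and 251 and 201 in the parental libraries, a ratio of 2.82, most of it HIST2H2BE. HIST3, also on chromosome 1, held 3 genes, of which 2 were tested and HIST3H2A rose, with a ratio of sums of 2.13. HIST4H4, the only HIST4 gene, was at most 2.26 in any library and was not tested.

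Within HIST1 the genes fall into 3 blocks along the chromosome. In the first block, 14 of 34 genes were tested and 8 rose, with a median log2 fold change of 1.29. In the second, 4 of 5 were tested and HIST1H2AG rose, with a median of 0.54. In the third, 5 of 16 were tested and HIST1H2BN rose, with a median of 0.73. The first block summed to 2454 and 2356 in the resistant libraries and to 1023 and 873 in the parental libraries, a ratio of 2.54. The second block summed to 535 and 575 in the resistant libraries and to 491 and 421 in the parental libraries, a ratio of 1.22, and the third had a ratio of 1.59. The difference between blocks was not tested.

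Other protein-coding genes lie between the histone genes of HIST1. Of 19 such genes, 12 were tested. Of these 12, 7 rose (TRIM38, BTN3A2, BTN2A2, BTN3A1, BTN3A3, ZNF322 and ZNF391) and ABT1 fell, against 16.2% and 20.9% of all tested genes. The median log2 fold change of the 12 was 0.42. BTN3A1, a butyrophilin gene, had 700.3 and 689.6 in the resistant libraries and 327 and 342 in the parental libraries, a log2 fold change of 1.05 and the largest of these. Whether the histone genes moved with the region was not tested.

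**Figure D3:**
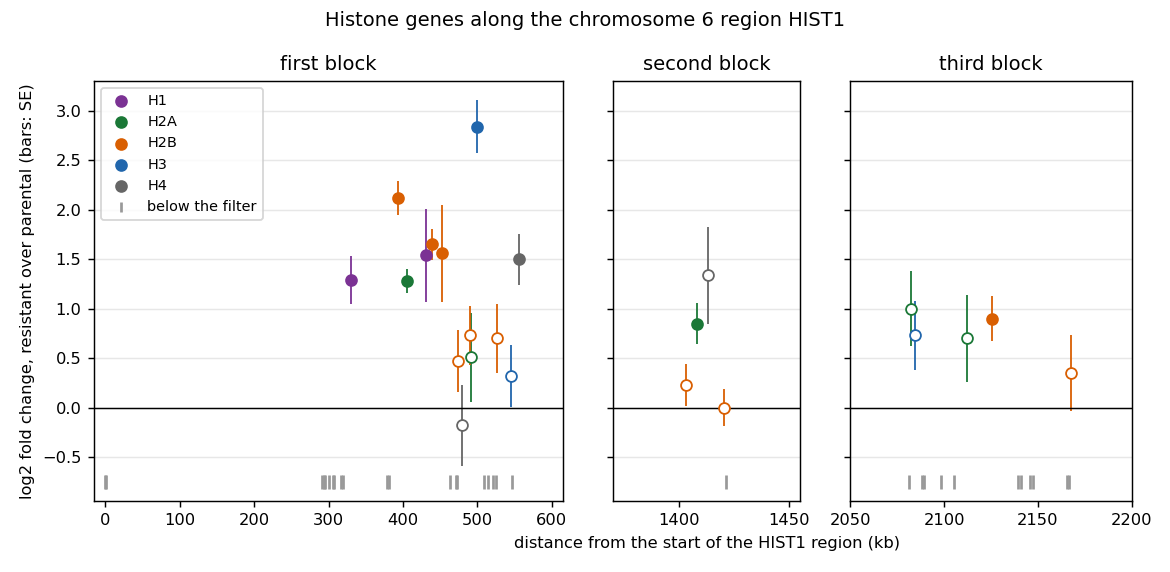
Log2 fold changes, resistant over parental, with SE, of the HIST1 genes by distance in kb from the start of the region, with filled points called, open points not called and ticks for genes below the filter. The first block holds 8 of the 10 called genes, including HIST1H3E at 2.84.

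H2A and H2B genes often lie head to head and share the stretch between their starts. Of 11 such pairs, with starts 219 to 331 bases apart, 4 had both partners tested and 1 had both called higher. In that pair, HIST1H2BC and HIST1H2AC, the starts lie 219 bases apart, and both genes rose. HIST3H2BB and HIST3H2A also both had positive log2 fold changes, 1.19 and 1.09, of which the HIST3H2A one alone was called. In other pairs 1 partner was scarcely detected. HIST2H2BE had 563 and 574 in the resistant libraries and 189 and 163 in the parental libraries, while HIST2H2AC, 323 bases away, had 2.26 and 0 in the resistant libraries and 12.2 and 4.78 in the parental libraries. HIST1H2BK had 257 and 259 in the resistant libraries beside 1.51 and 1.70 for HIST1H2AH, and 312 and 213 in the parental libraries beside 5.69 and 6.69. Per kb of exon, HIST2H2BE averaged 259 in the resistant and 80.1 in the parental libraries, and HIST2H2AC 2.90 in the resistant and 21.8 in the parental libraries. On the same scale HIST1H2BK averaged 677 in the resistant and 689 in the parental libraries, and HIST1H2AH 4.14 in the resistant and 16 in the parental libraries.

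The promoter windows of HIST1H2BC and HIST2H2BE, the H2B genes with the smallest adjusted p, are shown because both hold the octamer ATTTGCAT, a binding motif of POU-domain factors long known from H2B promoters, in capitals here. They are 300 bases around the gene start (RefSeq, GRCh38.p14), and that of HIST1H2BC also holds the start of HIST1H2AC on the other strand.
HIST1H2BC, chr6:26123877-26124176, minus strand: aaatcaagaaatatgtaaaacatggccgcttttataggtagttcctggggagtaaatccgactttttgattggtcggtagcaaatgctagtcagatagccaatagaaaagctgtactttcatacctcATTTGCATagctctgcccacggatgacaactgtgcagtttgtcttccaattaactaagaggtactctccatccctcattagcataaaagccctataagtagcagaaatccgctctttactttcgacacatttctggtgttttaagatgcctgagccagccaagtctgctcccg
HIST2H2BE, chr1:149886633-149886932, minus strand: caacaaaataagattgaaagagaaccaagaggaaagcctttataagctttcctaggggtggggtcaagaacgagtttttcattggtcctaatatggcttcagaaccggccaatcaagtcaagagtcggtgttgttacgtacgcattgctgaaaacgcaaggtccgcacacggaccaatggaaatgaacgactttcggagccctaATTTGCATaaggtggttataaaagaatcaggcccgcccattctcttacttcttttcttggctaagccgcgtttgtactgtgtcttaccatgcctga
Searched on both strands, the octamer occurred in 14 of 18 H2B and 11 of 14 H2A promoters, in 1 of 10 H3 promoters, and in 0 of 6 H1 and 0 of 13 H4 promoters, against 1.77% of all 35116 RefSeq promoters. The H3 match, listed for HIST1H3D, lies in the same window as that of HIST1H2AD (chr6:26199244-26199543), so it is an H2A promoter counted again. Windows of head-to-head H2A and H2B genes can overlap, so their counts are not independent. CCAAT occurred in all 18 H2B, 14 H2A, 10 H3 and 6 H1 promoters and in 3 of 13 H4 promoters, against 34.6% of all. TATAAA occurred in 12 H2B, 10 H2A, 8 H3, 3 H1 and 7 H4 promoters, against 11.5% of all. Of the H2A and H2B genes that rose, HIST1H2BD, HIST1H2BN and HIST3H2A held no octamer and the others did. Of those tested and not called, HIST1H2BK, HIST1H2BJ, HIST1H2BF, HIST1H2BG, HIST1H2BH, HIST1H2BO and HIST1H2AE held it. HIST1H2AI, HIST1H2AK and HIST3H2BB, also not called, did not. A match describes these letters and not binding.

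The genes known to give poly(A) transcripts in arrested or differentiating cells held most of the histone signal. These are HIST1H1C, HIST1H2AC, HIST1H2BC, HIST1H2BD, HIST1H2BJ, HIST1H2BK and HIST2H2BE. All 7 were tested and 5 rose, HIST1H2BJ and HIST1H2BK not being called, with a median log2 fold change of 1.29. They summed to 2860.0 and 2791 in the resistant libraries and to 1313 and 1116 in the parental libraries, a ratio of 2.33. Of the other 64 histone genes, 20 were tested and 8 rose, with a median of 0.87. Those 64 summed to 1402 and 1568 in the resistant libraries and to 766 and 798 in the parental libraries, a ratio of 1.90.

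Histone genes with a longer annotated stretch after the stop codon passed the filter more often and had a higher median level. Of 29 histone genes with at least 100 annotated bases after the stop codon, 21 were tested and 11 rose, and their median level was 16.3 per kb of exon. Of 35 with 0 such bases, 4 were tested and 1 rose, with a median level of 1.15 per kb. The 7 with 1 to 99 such bases had a median of 5.34 per kb, with 2 tested and 1 higher. AATAAA or ATTAAA, the usual poly(A) signals, occurred after the stop codon in 23 genes, of which 17 were tested and 11 rose. Of the 48 without, 10 were tested and 2 rose. The 35 genes with 0 annotated bases, HIST1H1C and HIST1H2BK included, are among these 48 and could hold no match. This split thus depends on the annotated length. HIST1H2AC, HIST1H2BC and HIST1H2BD each have 1 coding transcript that holds the stem-loop and 1 that does not, and a value per gene does not separate them. The filter is on the value and not on the value per length, so short gene models pass it less easily.

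**Figure D4:**
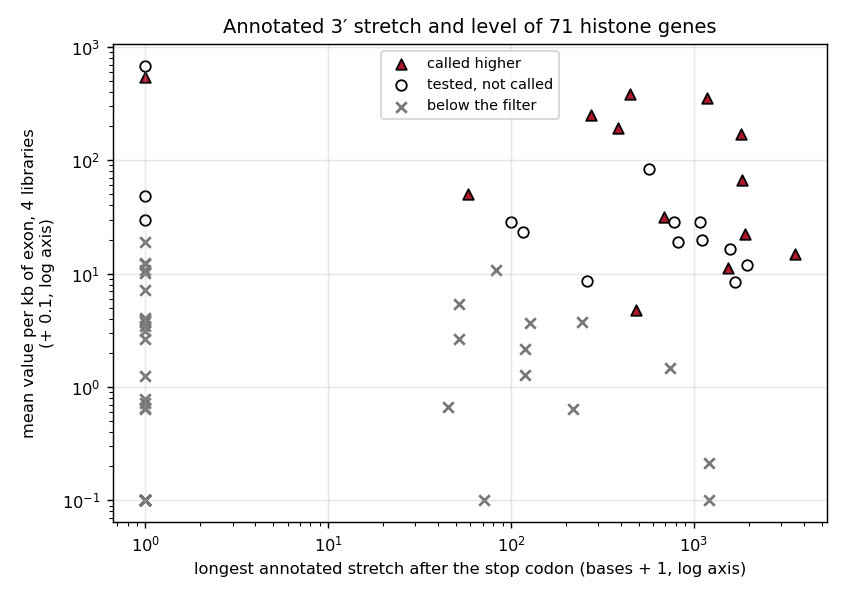
Mean value per kb of exon over the 4 libraries (plus 0.1, log axis) of the 71 histone genes, against the longest annotated stretch after the stop codon (plus 1 base, log axis). The genes with at least 100 such bases have a median of 16.3 per kb, and those with 0 have a median of 1.15, although HIST1H1C and HIST1H2BK, with 0, lie highest.

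The remaining 44 histone genes lay below the filter. Of these, 15 were listed at 0 in every library, and no value of the 44 exceeded 13.8. Together they summed to 51.7 and 64.8 in the resistant libraries and to 82.1 and 62.0 in the parental libraries, so the groups overlapped. HIST2H4B, HIST1H3A, HIST1H1T, HIST1H1D and HIST4H4 were higher in both resistant libraries. HIST2H3D, HIST2H2AC, HIST1H4C, HIST1H2AH and HIST1H3J were lower in both, and 19 others above 0 overlapped. Of the 50-base stretches of HIST2H4B, HIST2H3D, HIST1H3J and HIST2H2AC, 97.2%, 80.4%, 40.9% and 30.5% also occur in another gene, so their values are uncertain. HIST2H4B shares most with HIST2H4A, which had 6.78 and 5.10 in the resistant libraries and 13.8 and 1.91 in the parental libraries. HIST1H3D and HIST1H2AD were listed at 0, but they lie inside a read-through gene, AL031777.3. Of their 50-base stretches, 100% and 98.0% also occur in another gene, with AL031777.3 sharing the most. AL031777.3 had 55.7 and 66.2 in the resistant libraries and 25.2 and 19.1 in the parental libraries, a log2 fold change of 1.43 (limma adjusted p = 0.00567). Fragments cannot be assigned between these 2 histone genes and that gene. HIST2H2BC, a transcribed pseudogene and no member, had 320.0 and 331 in the resistant libraries and 129 and 149 in the parental libraries, a log2 fold change of 1.22 (limma adjusted p = 5.79e-04).

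Most genes of histone mRNA production and processing fell, as SLBP did. Of 25 genes of histone pre-mRNA processing and control, SLBP included, 15 fell and 1 rose, with a median log2 fold change of −0.34. Of all tested genes, 20.9% were called lower and 16.2% higher. NPAT, the cyclin E/CDK2 target that drives histone transcription, had 1094 and 1111 in the resistant libraries and 1507 and 1573 in the parental libraries, a log2 fold change of −0.48 ± 0.08 (limma adjusted p = 0.00285). CASP8AP2, a component of histone locus bodies, had 1162 and 1168 in the resistant libraries and 1629 and 1809.9 in the parental libraries, a log2 fold change of −0.56 ± 0.09 (limma adjusted p = 0.00191). In both genes the groups were apart. CSTF2, a subunit of the cleavage stimulation factor, fell by 0.52 on the log2 scale, and SNRPD3, a core small nuclear ribonucleoprotein, fell by 0.43. LSM11 of the U7 small nuclear ribonucleoprotein and ERI1, an exonuclease that trims and degrades histone mRNA, fell by 0.42 and 0.44, calls that were each lost with some library left out (LSM11 −0.45 and −0.40 without the first and second resistant library, ERI1 −0.35 and −0.39 without the first resistant and second parental library). Without trend and robust moderation ERI1 was not called (limma adjusted p = 0.0652). LSM10, the partner of LSM11 in the U7 particle, had 459 and 482 in the resistant libraries and 574 and 490.5 in the parental libraries. It was not called, at −0.17 ± 0.12 (limma adjusted p = 0.295). TUT7, which uridylates RNA ends, was the gene that rose, at 0.42 ± 0.08 (limma adjusted p = 0.00411).

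Replication-independent variants, which cells also make outside S phase and mostly from polyadenylated mRNA, numbered 12. Of these, 6 fell and 0 rose, with a median of −0.33, against 20.9% lower and 16.2% higher among all tested genes. H3F3B, which encodes H3.3, had 5487 and 6323 in the resistant libraries and 10074 and 10956 in the parental libraries, a log2 fold change of −0.83 ± 0.09 (limma adjusted p = 3.45e-04). H2AFZ, which encodes H2A.Z, had 3688 and 3818 in the resistant libraries and 5462 and 5734 in the parental libraries, a log2 fold change of −0.58 ± 0.07 (limma adjusted p = 6.91e-04). H2AFV, CENPA, H2AFY and H3F3C fell by 0.47, 0.42, 0.24 and 1.16 on the log2 scale. The calls of CENPA, H2AFY and H3F3C were each lost without either resistant library, with log2 fold changes of −0.49 and −0.35, −0.25 and −0.23, and −1.22 and −1.10 without the first and the second. The H2AFY call was also lost with TMM factors (−0.20, limma adjusted p = 0.0552) and with library totals (−0.14, limma adjusted p = 0.15), and those of H2AFY and CENPA without trend and robust moderation (limma adjusted p = 0.132 and 0.0884). The 3 calls were also lost without 1 parental library, the second for CENPA (−0.31) and the first for H2AFY (−0.20) and H3F3C (−0.93). The linker variant gene H1F0 had a log2 fold change of 0.00 ± 0.07. H2AFJ had 137 and 102 in the resistant libraries and 127 and 75.5 in the parental libraries, overlapping, with a log2 fold change of 0.27 ± 0.28 (limma adjusted p = 0.498). It was −0.10 without the second parental library.

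Histone chaperones and S-phase genes were mostly lower as well, while 20.9% of all tested genes were called lower and 16.2% higher. Of 22 tested genes of histone chaperoning and supply, 14 fell and NAP1L1 rose, with a median of −0.51. NASP, which holds the free pool of H3 and H4, had 3492 and 3757 in the resistant libraries and 7639 and 7492 in the parental libraries, a log2 fold change of −1.06 ± 0.07 (limma adjusted p = 6.93e-05). CHAF1A and CHAF1B of the assembly factor that follows the replication fork fell by 0.95 and 0.86, and DNAJC9 and IPO4, a chaperone and an import receptor of H3 and H4, fell by 0.85 and 0.67. Of 24 S-phase genes, 22 fell and 0 rose, with a median of −0.78. PCNA, the sliding clamp of DNA polymerases, had 1926 and 1903 in the resistant libraries and 3551 and 3407 in the parental libraries, a log2 fold change of −0.86 ± 0.08 (limma adjusted p = 1.63e-04). GINS2, CCNE2 and RRM2, which act in the replicative helicase, at S-phase entry and in nucleotide supply, fell by 1.28, 1.51 and 0.96. The 13 histone genes that rose did so beside lower levels of most chaperone and S-phase genes, and the part of cell-cycle state in this was not tested.

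**Figure D5:**
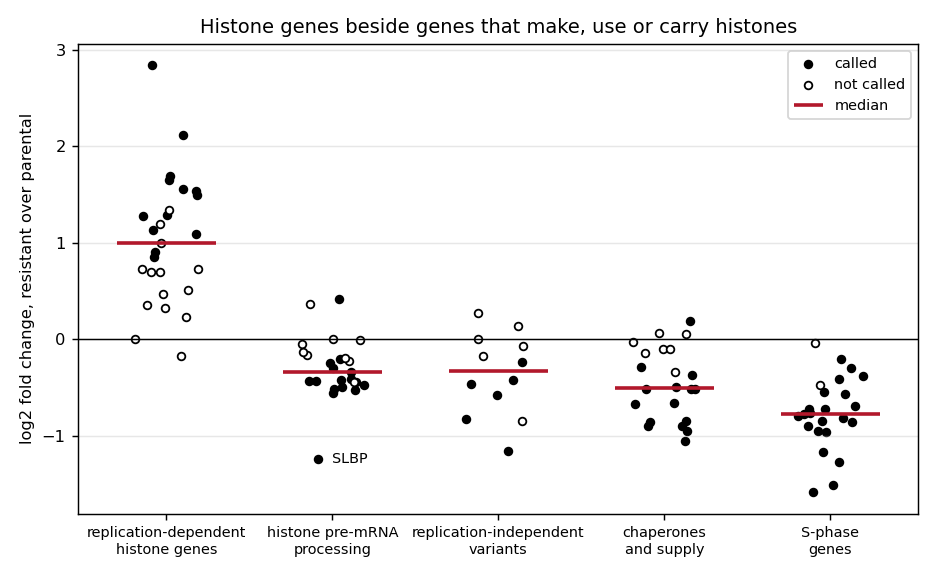
Log2 fold changes, resistant over parental, of the tested genes in 5 lists, with filled points called, open points not called and red lines for medians. The histone genes have a median of 1.0, against −0.34 for the processing genes, −0.33 for variants, −0.51 for chaperones and −0.78 for S-phase genes.

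Across 12 other settings of the fit, SLBP remained lower in each. HIST2H2BE, HIST1H2BC, HIST1H2AC, HIST1H2BD, HIST1H3E and HIST1H4H were called higher in every one, and the other 7 histone genes that rose lost the call in at least 1. Without trend and robust moderation, HIST1H1C (limma adjusted p = 0.054), HIST3H2A (limma adjusted p = 0.0505), HIST1H1E, HIST1H2BE and HIST1H2AG were not called. With the median of all tested genes at 0.08 under scaling to the library total, against −0.02 as deposited, the direction of SLBP and of these 13 genes was the same. Of all called genes, 43.7% were higher in the resistant libraries as deposited, 49.7% with TMM factors and 56.9% with library totals.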

How the data were processed

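RNA sequencing of 2 TMZ-resistant and 2 parental libraries was analysed, grouped by the treatment in the labels. The authors deposited a signal: fragments per gene, scaled by library and not by length. In each library 1 fragment is worth 0.753 to 0.956, and of the values so divided 93.8% to 94.3% were whole (tolerance 0.05), for 27019137 to 30759939 fragments a library. Because not all were whole, no count test was used. HISAT2 2.1.0, Cufflinks 2.2.1, Cuffdiff, Trimmomatic 0.36, SAMtools 1.2, bcl2fastq and build GRCh38.p10 are named in the submitters' processing notes. No source used here gives the annotation release, strand setting or scaling method, so a gene and its antisense partner cannot be told apart.

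Values were taken as log2(value + 1), which understates the change of low genes, and tested with limma 3.58.1 (R 4.3.3), with trend and robust moderation and the group as the only term, two-sided. Genes needed a value of at least 10 in at least 2 libraries and a sum of at least 15, and p-values were adjusted over all 16132 by the Benjamini-Hochberg method. The fit was tested on simulated data. Gene names, coordinates, exon lengths and transcripts come from GENCODE 29 (GRCh38) and promoters from RefSeq, which matched 62 of the 72 members. Levels per kb use the length of all annotated exons. The members and lists were chosen with earlier results of these data known. Values in every library are given for SLBP, for the highest 2 genes per length of each type, for the genes that moved most, and for genes of other lists by smallest adjusted p or by a fixed choice. HIST1H2AG, HIST1H2BN, HIST2H2BF, HIST1H2BJ, HIST1H4I, HIST2H2AC, HIST1H2AH, HIST2H2BC, AL031777.3 and BTN3A1 were added after their values were seen. Alternatives were another scaling, pseudocount, filter or moderation, the replicate block, and each library left out.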

Additional observations from a re-analysis of the deposited data

How the results depend on the processing

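SLBP kept its direction and call under all 12 alternatives run, with log2 fold changes of −1.28 to −1.15. The histone genes called higher, 13 as reported, numbered 13 with TMM factors, 15 with library totals, 13 with a pseudocount of 0.5 or 5, 13 with no filter, 12 with 1 CPM in 2 libraries and 11 without trend and robust moderation. With 1 library left out they numbered 8 to 14, and 8 without the second resistant library. Of the 13, 6 were called under every alternative. The histone genes called lower, 0 as reported, were 1 with no filter, HIST1H3J. That gene had 0.342 and 0 in the resistant libraries and 4.26 and 3.32 in the parental libraries, all low values. It overlaps HIST1H2AM on the same strand, so its value is uncertain. Changed genes, 5991 as reported, were 3686 without trend and robust moderation and 3593 to 5476 with 1 library left out. The log2 ratio of summed histone values, 1.11 as reported, was 1.2 with library totals. With 1 library left out, the log2 ratios ranged 0.95 to 1.74 for H1, 1.0 to 1.21 for H2B, 0.41 to 1.18 for H4, 0.95 to 1.14 for HIST1 and 1.34 to 1.67 for HIST2. Signs turned for 3 genes that were not called: with 1 library left out, HIST1H4E ranged −0.70 to 0.33, HIST1H2BK −0.27 to 0.27 (−0.01 without the second resistant library) and H2AFJ −0.10 to 0.64. The cause was not tested. Same-numbered libraries deviated together weakly (correlation 0.265 over 16132 genes), and with 2 pairs the numbers are not taken to pair the libraries. With the replicate block, 8624 genes changed, 17 histone genes were higher and 0 lower. Where 1 library of a group was left, it was assumed to vary like the other group. The planned edgeR and DESeq2 fits were not run because the values could not be turned into whole counts. Low values limit what could be tested, with 44 histone genes below the filter.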
